A study of Neogale vison with 6 samples.

Results

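SGK1, the insulin receptor substrates and the FOXO factors were followed as 9 genes of the insulin and PI3K pathway, chosen by name: SGK1, IRS1, IRS2, GRB10, PIK3R1, PIK3CA, AKT1, FOXO1 and FOXO3. Of these, 8 were found by symbol among the 24526 genes of the count table, and all 8 had enough reads to be tested. FOXO3 is absent as a symbol, but 1 gene without a symbol (ENSNVIG00000004481) is described in the table as forkhead box O3, and its values are given apart from the counts of the 8. The cells were Mv1Lu, an epithelial line from mink lung, as 3 untreated libraries (control) and 3 libraries of cells subjected to cholesterol depletion (CD). CD consisted of 16 h with 50 μM of the statin lovastatin and 50 μM mevalonate in medium with 10% lipoprotein-deficient serum (LPDS). The labels name the serum of the CD cells only, so statin, mevalonate and serum cannot be told apart. The question addressed here is how CD changed the mRNA levels of the pathway.

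Insulin and insulin-like growth factors bind receptor tyrosine kinases, which phosphorylate the docking proteins IRS1 and IRS2. These recruit PI3K, a lipid kinase made of a regulatory subunit (PIK3R1) and a catalytic subunit (PIK3CA), and its product brings AKT1 to the membrane. SGK1 is a kinase related to AKT that is phosphorylated by mTOR complex 2 and whose own mRNA is induced by serum, glucocorticoids and osmotic stress. AKT and SGK1 phosphorylate FOXO1 and FOXO3, which then leave the nucleus, so that FOXO target genes are transcribed when the pathway is inactive. IRS2 is itself a FOXO target and is repressed by SREBP factors in liver. GRB10 is an adaptor that binds the receptors and inhibits them.

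Reads counted on genes ranged from 13473820 to 18633764 per library, and 29.3% to 47.2% of the reads of a library fell in rows that name no gene. The spread was larger among the CD libraries (biological coefficient of variation 0.214) than among the control libraries (0.0838), and CD replicate 3 stood furthest from the other CD libraries. Keratin mRNAs KRT7 and KRT19 were abundant, whereas EPCAM, a marker of most epithelia, had 7 reads in control and 2 in CD, and CDH1, another, had 8 and 18. KRT7 fell from 7126 ± 265 CPM (the count scaled to library size) to 1256 ± 156 CPM (SD, n = 3 per group, FDR 1.10e-06, edgeR), whereas CLDN4, a tight junction protein, rose from 27 to 326 reads (FDR 9.61e-06, edgeR). Of 4 tested epithelial markers, 1 was higher, 2 were lower and OCLN did not pass the test (log2 fold change 0.063, FDR 0.83, edgeR). Among all 12148 tested genes, 24.8% were higher and 22.9% lower. The immune marker PTPRC and the endothelial marker CDH5 had 0 reads in control and 1 read in CD cells. TEK, also on the endothelial list, was expressed and fell from 215 ± 7.79 to 102 ± 24.5 CPM (SD, n = 3 per group, FDR 5.27e-04, edgeR), so that the list summed to 206 to 221 CPM in control and 74.9 to 123 CPM in CD libraries. The summed level of 3 immune markers, however, was 5.2 to 5.84 CPM in control and 17.6 to 23.3 CPM in CD libraries and consisted almost entirely of CD68. The summed level of 6 fibroblast markers was 310 to 387 CPM in control and 182 to 232 CPM in CD libraries, and the part of any of these lists in the results below was not tested.

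In CD, SGK1 rose 4.79-fold, GRB10 rose 1.89-fold and PIK3CA rose 1.67-fold, while IRS1, IRS2, PIK3R1, AKT1 and FOXO1 did not pass the test. The gene described as FOXO3 rose 1.86-fold. In all, 3 of the 8 genes found by symbol were higher in CD with an FDR below 0.05 (edgeR, quasi-likelihood), where 24.8% of all 12148 tested genes were higher. None of the 8 was lower in edgeR, DESeq2 or limma-voom, against 22.9% of all genes in edgeR, and 1 of the 8 (IRS1) was lower at an unadjusted p under 0.05. The median log2 fold change of the 8 genes was 0.31, and that of all tested genes was 0.057. The levels of 4 of the 8 genes did not overlap between the groups, compared with 58.0% of the tested genes. Over both directions, 47.7% of all genes were called, so the share of called genes among the 8 was not above the background. All levels are in CPM after TMM scaling. In bulk RNA, a change in the share of some cells and a change in RNA per cell cannot be told apart.

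**Figure D1:**
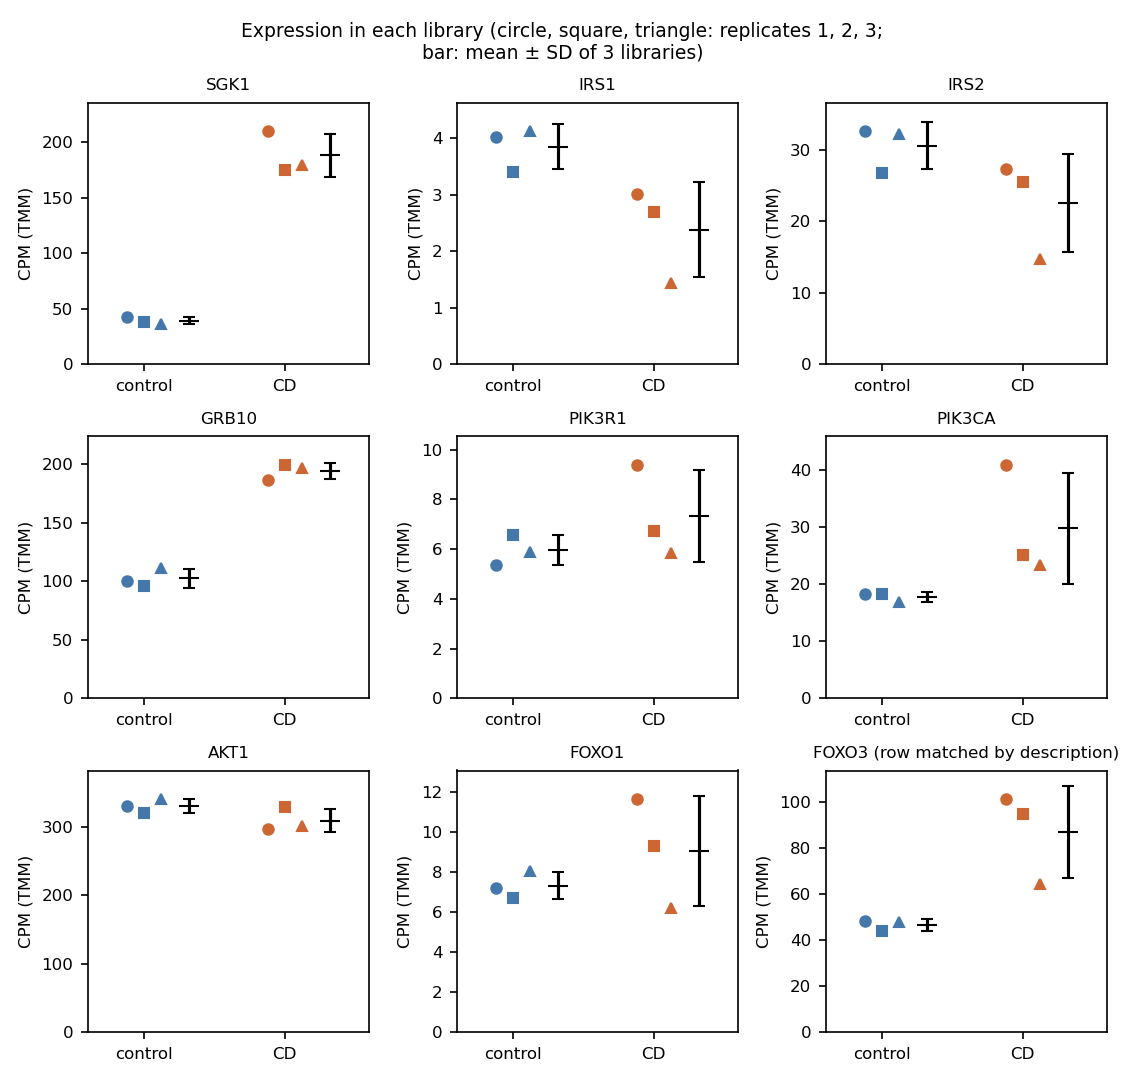
Level of each gene (CPM after TMM scaling, linear axis from 0) in the 3 control (blue) and 3 CD (orange) libraries, with the mean and SD of each group in black. SGK1 and GRB10 form tight, separate groups, while IRS1, IRS2, PIK3R1, PIK3CA, FOXO1 and FOXO3 spread widely among the CD libraries.

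SGK1 (ENSNVIG00000017967) was at 42.9, 38.2 and 36.8 CPM in control replicates 1, 2 and 3, and at 210, 175 and 180 CPM in CD replicates 1, 2 and 3. Every CD library thus held several times the level of every control library, and both groups were tight. The mean went from 39.3 ± 3.23 to 188 ± 19.4 CPM (SD, n = 3 per group), which is 2.26 on the log2 scale (SE 0.13, 95% interval 3.94- to 5.83-fold, FDR 8.65e-07, edgeR). By comparison, 10.6% of all tested genes were called higher with a change of at least 2-fold. SGK1 was called higher in each of 15 alternative settings, with log2 fold changes between 2.19 and 2.33. Its relative SGK3, a kinase recruited to endosomes, had 245 reads in the control and 400 reads in the CD libraries and rose 1.61-fold (FDR 0.0168, edgeR), but it was not called when any control library was left out (FDR 0.0527 to 0.0675). SGK2 had 0 reads in control and 4 reads in CD libraries and was not tested.

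Whether SGK1 rose more than SGK3 can be asked within each library, since the ratio of the reads of a pair of genes does not depend on the scaling. The ratio is not corrected for gene length, so only its change is of use. Reads of SGK1 per read of SGK3 were 8.21, 6.95 and 6.95 in the control libraries and 20.5, 25.2 and 20.8 in the CD libraries, a change of 3.0-fold. The ratio of SGK1 to AKT1 changed 5.13-fold, from 0.130, 0.119 and 0.108 to 0.709, 0.531 and 0.595. Neither ratio overlapped between the groups, and the exact two-sided permutation test gave p = 0.1 for each, the smallest value that 3 libraries against 3 allow (0.1 after adjustment over 6 ratios). By likeness of pattern, genes with a high Pearson r to SGK1 over the 6 libraries included PLA2G4A (0.9995), OTUD1 (0.9989), CAST (0.9989) and MYO7B (0.9987). Since the groups differ, such values were common: 1095 tested genes with a symbol had an r above 0.95.

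The insulin receptor substrates had lower mean levels in CD, but neither passed the test. IRS1 (ENSNVIG00000000925) was at 4.01, 3.40 and 4.13 CPM in control and at 3.01, 2.7 and 1.44 CPM in CD replicates 1, 2 and 3. The groups did not overlap, although CD replicate 3, with 20 reads, lay well below the other CD libraries. Its log2 fold change was -0.68 with a 95% interval of -1.3 to -0.064 (FDR 0.0661, edgeR). IRS1 was also the gene with the fewest reads of the 8, 178 in control and 113 in CD. IRS2 (ENSNVIG00000002654) was at 32.7, 26.8 and 32.2 CPM in control and at 27.4, 25.5 and 14.7 CPM in CD cells, and the groups overlapped. The log2 fold change of IRS2 was -0.44, with a 95% interval of -0.93 to 0.052 (FDR 0.13, edgeR). Both values were closer to 0 without CD replicate 3, when the log2 fold changes were -0.47 for IRS1 (FDR 0.0977) and -0.25 for IRS2 (FDR 0.12). Without CD replicate 1, both were called lower, at -0.86 (FDR 0.0299) and -0.59 (FDR 0.0492). IRS1 was also called lower with the replicate number as a block in edgeR (FDR 0.0496). The read ratio of IRS2 to IRS1 rose from 8.14, 7.89 and 7.79 to 9.08, 9.43 and 10.2, without overlap (1.20-fold, exact permutation test, two-sided p = 0.1).

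GRB10, the inhibitory adaptor (ENSNVIG00000018327), was at 99.8, 96.0 and 112 CPM in control and at 186, 200 and 196 CPM in CD replicates 1, 2 and 3. All CD libraries lay far above all control libraries, and CD replicate 3 did not stand apart. The mean went from 102 ± 8.22 to 194 ± 7.10 CPM (SD, n = 3 per group), or 0.92 on the log2 scale (SE 0.11, FDR 9.87e-05, edgeR). GRB10 was called in all 15 alternative settings, between 0.87 and 0.98. Relative to IRS1, the reads of GRB10 changed 3.20-fold, with ratios of 24.9, 28.3 and 27.0 in control and 61.8, 73.9 and 136 in CD (exact permutation test, two-sided p = 0.1). GRB14, a close relative, did not pass the test (log2 fold change 0.38, FDR 0.23, edgeR), and GRB7 (2 reads in control, 11 in CD) and IRS4 (2 and 0) were not tested.

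PIK3CA, the catalytic subunit of PI3K (ENSNVIG00000018130), was at 18.3, 18.4 and 16.8 CPM in control and at 40.9, 25.0 and 23.3 CPM in CD replicates 1, 2 and 3. CD replicate 1 was far above the other CD libraries, and all of them were above the control libraries. The log2 fold change was 0.74 with a 95% interval of 1.20- to 2.33-fold (FDR 0.0168, edgeR). It was 0.45 without CD replicate 1 (FDR 0.0297), and PIK3CA was not called without control replicate 2 (FDR 0.0540) or control replicate 3 (FDR 0.0730). PIK3R1, the regulatory subunit (ENSNVIG00000015616), was at 5.37, 6.58 and 5.90 CPM in control and at 9.40, 6.75 and 5.84 CPM in CD cells. Only CD replicate 1 was clearly above the control libraries, and the gene did not pass the test (log2 fold change 0.30, 95% interval -0.19 to 0.80, FDR 0.28, edgeR). Leaving out a library moved this value to between 0.094 (without CD replicate 1) and 0.40 (without CD replicate 3). The read ratio of PIK3R1 to PIK3CA was 0.294, 0.358 and 0.351 in control and 0.230, 0.270 and 0.251 in CD, without overlap (0.749-fold, exact permutation test, two-sided p = 0.1).

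Among other PI3K genes, PIK3CD, the delta catalytic subunit, rose from 0.826 ± 0.392 to 9.09 ± 0.124 CPM (SD, n = 3 per group), or 10.9-fold (FDR 1.12e-05, edgeR) and called in all 15 settings. PIK3IP1, a membrane protein that inhibits PI3K, rose from 10.7 ± 1.79 to 124 ± 8.07 CPM, or 11.5-fold (FDR 2.79e-07, edgeR). PIK3R3, a regulatory subunit matched by its description, rose 2.06-fold (FDR 0.0204, edgeR), but was not called in 4 of 14 settings. The catalytic subunit PIK3CB did not pass the test (log2 fold change -0.15, FDR 0.675, edgeR), and its sign turned without CD replicate 3 (0.043). Of 9 genes on the list of PI3K subunits and regulators, 5 were tested and 3 were higher, the inhibitor PIK3IP1 among them, against 24.8% of all genes. In edgeR 0 were lower (0 also at an unadjusted p under 0.05), as in DESeq2 and limma-voom, while limma-voom with group weights and edgeR with the replicate block each called 1 lower, and leaving out CD replicate 1 gave 2 lower. Among 7 phosphatases that remove phosphates from PI3K products or related lipids, 2 were higher, a share near the 24.8% of all genes, and 0 lower in edgeR (0 lower at an unadjusted p under 0.05 and in DESeq2 and limma-voom). No higher call remained without control replicate 1, 2 or 3 or without CD replicate 2, and 3 were higher without CD replicate 3, while 1 was lower without CD replicate 2. INPP5K rose 1.3-fold (FDR 0.0197, edgeR) and was not called in 5 of 15 settings.

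AKT1 (ENSNVIG00000007234) was at 331, 320 and 341 CPM in control and at 297, 329 and 302 CPM in CD replicates 1, 2 and 3. The groups overlapped, and the log2 fold change of -0.098 had a 95% interval of -0.33 to 0.14, or 0.795- to 1.1-fold (FDR 0.47, edgeR). With 15245 and 14378 reads in the groups, AKT1 was the gene of the 8 with the most reads. AKT2 had a log2 fold change of -0.29 (FDR 0.0566, edgeR) and was called lower without CD replicate 2 or 3 and with total counts as the only scaling. Of 9 tested AKT and SGK kinases and regulators, 3 were higher (24.8% of all genes) and 0 lower (22.9%) in edgeR (1 lower at an unadjusted p under 0.05, 0 in DESeq2 and limma-voom), and 5 were higher without CD replicate 3. With total counts only, or without CD replicate 1, 2 or 3, 1 was lower. TRIB1, a pseudokinase of the Tribbles family, rose 5.44-fold (FDR 3.04e-05, edgeR), and THEM4, which binds AKT, rose 1.70-fold (FDR 0.0103, edgeR).

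FOXO1 (ENSNVIG00000020885) was at 7.24, 6.72 and 8.04 CPM in control and at 11.7, 9.33 and 6.20 CPM in CD replicates 1, 2 and 3. CD replicates 1 and 2 lay above all control libraries, and CD replicate 3 lay below all of them. The gene did not pass the test over the 6 libraries (log2 fold change 0.31, 95% interval -0.22 to 0.84, FDR 0.31, edgeR). Without CD replicate 3 it was called higher, with a log2 fold change of 0.48 (FDR 0.0285). The gene described as FOXO3 was at 48.5, 43.9 and 47.7 CPM in control and at 102, 95 and 64.5 CPM in CD cells. All CD libraries were above all control libraries, and replicate 3 was again the lowest. The rise was 0.90 on the log2 scale (SE 0.17, FDR 0.00166, edgeR), and the gene was called in all 15 alternative settings. FOXO4 rose from 14.7 ± 0.923 to 27.6 ± 1.29 CPM (SD, n = 3 per group), or 1.88-fold (FDR 4.88e-04, edgeR). The read ratio of FOXO1 to FOXO3 fell in CD from 0.149, 0.153 and 0.169 to 0.115, 0.0982 and 0.0961 (0.656-fold, exact permutation test, two-sided p = 0.1).

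**Figure D2:**
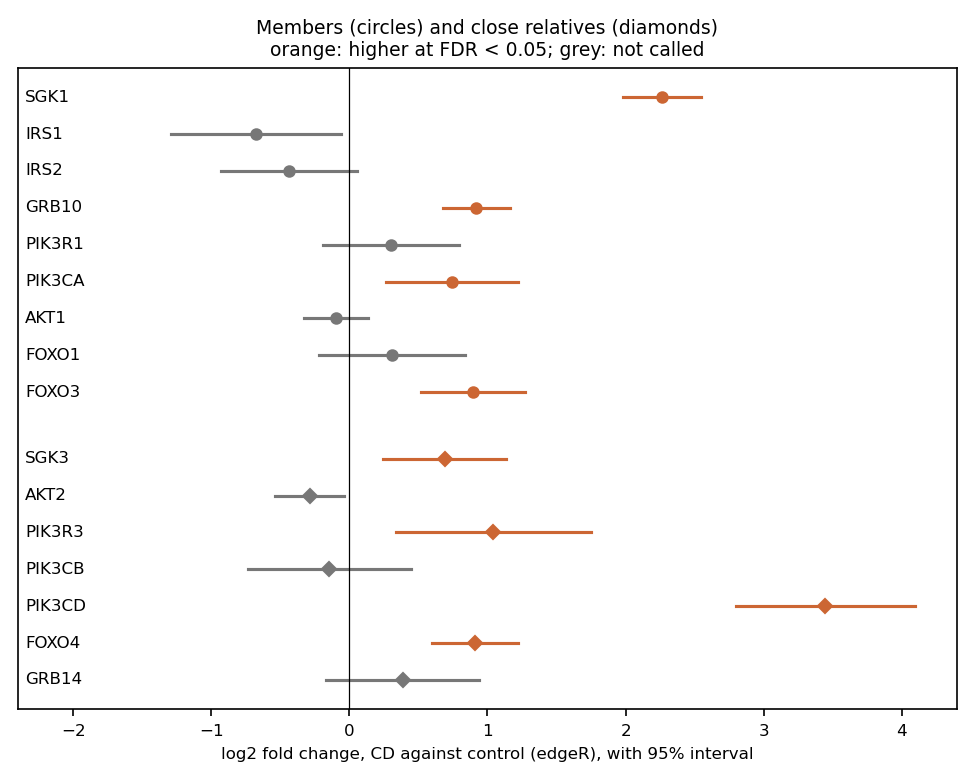
Log2 fold change of CD against control from edgeR, with its 95% interval, for the 9 genes (circles) and close relatives (diamonds), in orange where called higher and in grey where not called. SGK1 and PIK3CD lie furthest to the right, and IRS1, IRS2, AKT1, AKT2 and PIK3CB have estimates below 0 that did not pass the test.

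CD replicate 3 had the lowest level among the CD libraries for 5 of the 8 genes found by symbol, compared with 41.0% of all tested genes. CD replicate 1 had the highest level for 6 of the 8, and for 4475 of the 12148 tested genes. SGK1, GRB10 and AKT1, by contrast, varied by 10.3%, 3.66% and 5.58% (coefficient of variation) among the CD libraries, and the other 5 genes found by symbol by 25.3% to 34.9%. In the control libraries, all 8 varied by 3.11% to 10.6%.

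**Figure D3:**
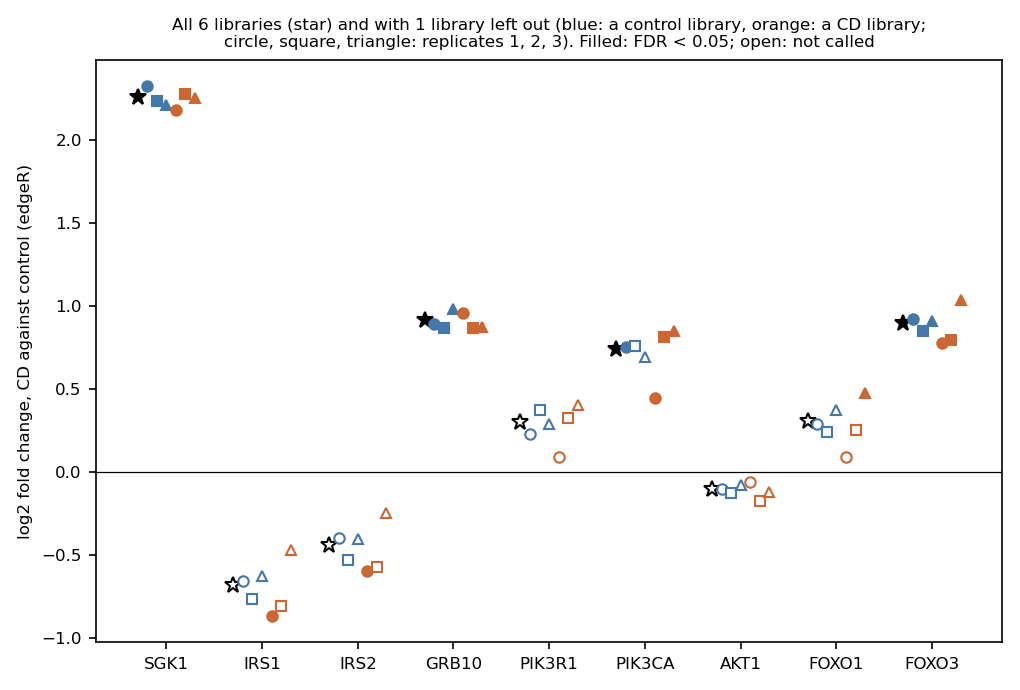
Log2 fold change of each gene from edgeR with all 6 libraries (star) and with 1 library left out (blue for control, orange for CD). Filled symbols passed an FDR of 0.05. SGK1, GRB10 and FOXO3 stay filled throughout, whereas the values of IRS1, IRS2, PIK3R1, PIK3CA and FOXO1 move further from the star when CD replicate 1 or 3 is left out.

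The rest of the pathway was described with 12 lists, holding 137 genes beside the 9. Of these, 127 were found and 107 tested, of which 50 were higher, 15 were lower and 42 did not pass the test in edgeR, where 24.8% of all tested genes were higher and 22.9% lower. The median log2 fold change over the 107 genes was 0.39. Upstream of the receptor substrates, IGFBP6, which binds insulin-like growth factors, rose from 117 ± 6.57 to 533 ± 146 CPM (SD, n = 3 per group; FDR 1.26e-05, edgeR), and IGFBP7 rose 1.66-fold (FDR 0.00310, edgeR). IGFBP3, another binding protein, fell from 66.4 ± 7.70 to 20.1 ± 4.11 CPM (FDR 3.47e-05, edgeR). The receptor IGF1R fell by 0.71 on the log2 scale (FDR 0.00590, edgeR), while the insulin receptor INSR had a log2 fold change of 0.13 and did not pass (FDR 0.59, edgeR). In all, 2 of 7 tested ligand and receptor genes were higher and 2 were lower in edgeR, with 2 to 4 higher (4 without CD replicate 3) and 2 to 3 lower over the alternative settings and 3 lower in DESeq2 and limma-voom.

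Among 14 tested adaptors, 6 were higher and 2 lower, beside 24.8% and 22.9% of all genes. Over the alternative settings, 4 to 7 were higher and 1 to 2 lower. GAB1, a docking protein that recruits PI3K, rose 1.78-fold (FDR 0.00163, edgeR), and SOS1, an exchange factor for Ras, rose 1.95-fold (FDR 0.00647, edgeR). PTPN1, a phosphatase that acts on the insulin receptor, rose 1.53-fold (FDR 0.0220, edgeR), but was not called in 4 of 15 settings. DOK1, a docking protein that dampens signaling, fell by 1.10 on the log2 scale (FDR 1.05e-04, edgeR), and SH2B3, an inhibitory adaptor, fell by 0.80 (FDR 0.0266, edgeR), a call lost in 5 of 15 settings.

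Genes of mTOR complex 2, the kinase complex that phosphorylates SGK1 and AKT, had 4 lower members of 6 tested, beside 22.9% of all genes, with -0.62 as the median on the log2 scale. In edgeR 0 were higher (0 at an unadjusted p under 0.05 and in DESeq2 and limma-voom), but 1 was higher without CD replicate 3. RICTOR, the scaffold of the complex, had a log2 fold change of 0.54 and did not pass (FDR 0.26, edgeR). The subunit MAPKAP1 did not pass either (log2 fold change -0.028, FDR 0.87, edgeR). The lower members were thus MTOR, MLST8, PRR5 and PRR5L, and MLST8 had a log2 fold change of -0.54 (FDR 0.0037, edgeR). The subunit PRR5 fell from 17.6 ± 0.566 to 3.80 ± 0.964 CPM and its homolog PRR5L from 31.6 ± 1.6 to 6.19 ± 2.02 CPM (SD, n = 3 per group; FDR 2.26e-05 and 3.00e-05, edgeR). Both were called in all 15 settings. The log2 fold change of MTOR was -0.70 (FDR 0.0448, edgeR), and this call was lost in 7 of 15 settings.

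Of 7 tested SGK1 substrates and effectors, 5 were higher, beside 24.8% of all genes, and the median of the list was 0.69 on the log2 scale. In edgeR 0 were lower (1 at an unadjusted p under 0.05, 0 in DESeq2 and limma-voom). KCNQ1 and SLC9A3R2, the remaining members, had log2 fold changes of -0.30 and -0.43 and were called lower without CD replicate 3. NDRG1, whose phosphorylation is used as a readout of SGK1 activity, rose from 75.7 ± 8.50 to 765 ± 25.5 CPM (SD, n = 3 per group), or 10.1-fold (FDR 1.38e-07, edgeR). SCNN1A, the alpha subunit of the epithelial sodium channel, rose 6.12-fold (FDR 4.96e-06, edgeR), and SCNN1B, the beta subunit, rose 2.42-fold from 42 reads in control to 104 reads in CD (FDR 0.00631, edgeR). The gamma subunit SCNN1G had 1 read in all. NEDD4L, the ubiquitin ligase that removes the channel and is phosphorylated by SGK1, rose 1.62-fold (FDR 0.0155, edgeR). These are mRNA levels, and phosphorylation was not measured in these data.

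Of 6 tested AKT substrates, 1 was higher and 2 were lower, beside 24.8% and 22.9% of all genes. MDM2, the ubiquitin ligase of p53, rose 2.01-fold (FDR 7.56e-04, edgeR). TBC1D4, which controls glucose transporter traffic, fell by 1.08 on the log2 scale (FDR 0.00629, edgeR), and AKT1S1, an inhibitor of mTOR complex 1, fell by 0.41 (FDR 0.0403, edgeR), a call lost in 6 of 15 settings. The list gave 2 higher without CD replicate 3 and 1 lower when any other single library was left out.

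Of 22 tested FOXO targets, 18 were higher and 2 lower, against 24.8% higher and 22.9% lower among all genes. The median log2 fold change was 1.19. MXI1, an antagonist of MYC, rose from 2.31 ± 0.702 to 27.5 ± 2.15 CPM (SD, n = 3 per group), or 11.7-fold (FDR 2.00e-06, edgeR). TXNIP, an inhibitor of thioredoxin and glucose uptake, rose 9.28-fold (FDR 1.12e-05, edgeR), and the proapoptotic BCL2L11 rose 7.94-fold (FDR 3.10e-06, edgeR). CDKN1B, an inhibitor of cyclin-dependent kinases, rose 1.81-fold (FDR 4.07e-04, edgeR). The members that fell were KLF15, from 101 to 29 reads, and the receptor ERBB3, from 62 to 23 reads (FDR 6.03e-04 and 0.00671, edgeR). IRS2, also a FOXO target, is counted among the 9 genes and did not pass the test. Over the 15 alternative settings, between 15 and 18 of these targets were higher and 0 to 2 lower. The value of 0 came with a minimum of 50 counts in 3 libraries, where KLF15 and ERBB3 were not tested. Both were called lower in all 14 settings that tested them. Without CD replicate 3 the counts were 18 and 2. CDKN1A and SESN1 are known as targets of p53 as well, and the activity of no factor was measured here.

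Among the relatives and partners of FOXO, FOXO4 included, 5 of 11 tested genes were higher and 1 was lower, beside 24.8% and 22.9% of all genes. The alternative settings gave 4 to 6 higher and 1 lower. YWHAH, of the adaptor family that holds phosphorylated FOXO in the cytoplasm, rose from 166 ± 8.60 to 818 ± 50.2 CPM (SD, n = 3 per group; FDR 4.71e-07, edgeR), and YWHAZ of the same family rose 1.61-fold (FDR 0.00134, edgeR). SKP2, a subunit of the ligase that degrades FOXO1 and CDKN1B, fell by 0.83 on the log2 scale (FDR 7.72e-04, edgeR).

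Glucocorticoids and osmotic stress, known inducers of SGK1 mRNA, were followed by lists of other genes tied to these stimuli, and no list covers serum. Of 9 tested genes of the glucocorticoid list, 4 were higher and 2 lower, beside 24.8% and 22.9% of all genes. The median was 0.13 on the log2 scale, and the alternative settings gave 3 to 4 higher and 1 to 2 lower. The 9 include the receptors NR3C1, which was among the higher genes (1.84-fold, FDR 0.0212, edgeR), and NR3C2, which did not pass (FDR 0.73, edgeR). TSC22D3 rose 3.85-fold (FDR 5.70e-06, edgeR) and DUSP1 rose 3.21-fold (FDR 3.52e-06, edgeR). KLF9, with few reads, rose 4.51-fold from 40 reads in control to 186 reads in CD (FDR 0.00111, edgeR). FKBP5, a widely used glucocorticoid target, had a log2 fold change of -0.15 and did not pass (FDR 0.38, edgeR). PER1, another target, fell by 0.50 (FDR 0.0402, edgeR), a call lost in 5 of 15 settings, and CRISPLD2 fell by 1.38 (FDR 0.00633, edgeR). Of 4 tested genes of the osmotic stress list, the factor NFAT5 and 3 of its targets, 1 was higher (24.8% of all genes), the taurine transporter SLC6A6 (1.82-fold, FDR 0.00226, edgeR). In edgeR 0 were lower (0 at an unadjusted p under 0.05 and in DESeq2 and limma-voom), and 3 were higher without CD replicate 3.

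**Figure D4:**
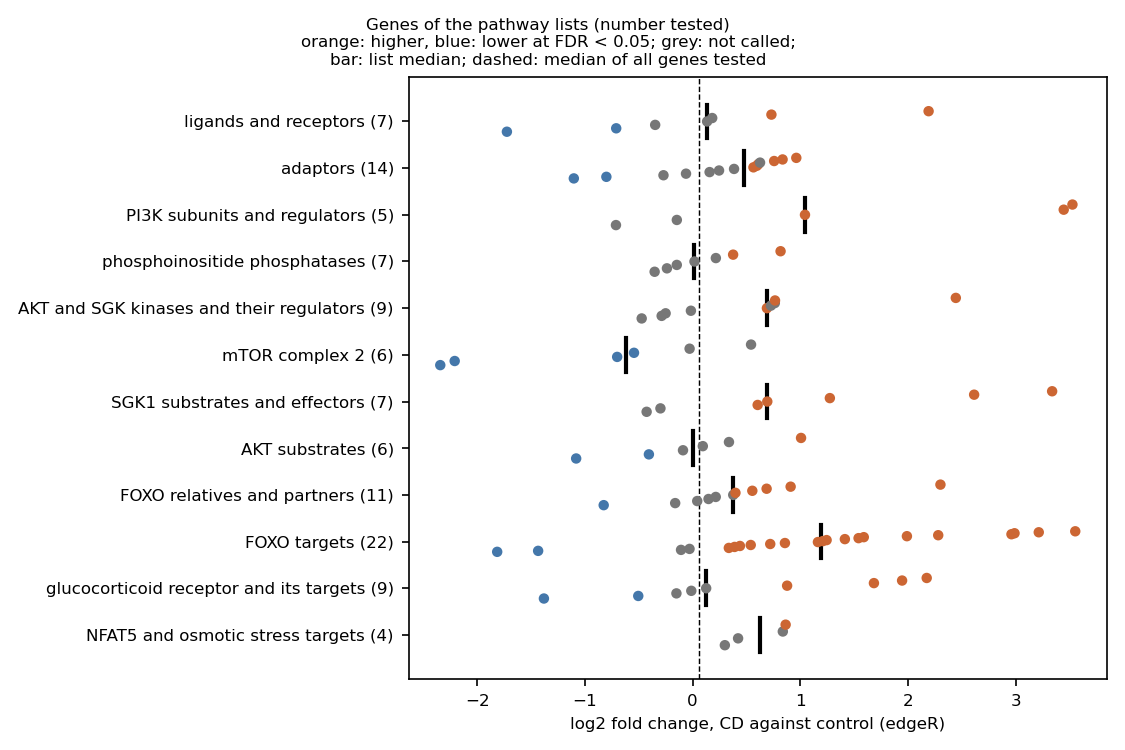
Log2 fold change of CD against control (edgeR) for each tested gene of the 12 pathway lists, with the number tested in parentheses, in orange where higher, blue where lower and grey where not called. Black bars are list medians and the dashed line is the median of all tested genes (0.057). FOXO targets lie mostly to the right, while the genes of mTOR complex 2 lie mostly to the left.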

How the data were processed

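Poly(A) RNA was sequenced. The authors trimmed the reads with fastp 0.20.1, aligned them to the mink assembly with STAR 2.7.2a and deposited raw counts per gene for 6 libraries. The program that assigned reads to genes, and its use of strand, are not given in the sources used here, so overlapping genes and near-identical copies are uncertain. The deposited normalized files were not used, and 4 rows of read totals were left out of library sizes and tests and served only for the share of reads outside genes. Counts were compared with edgeR 4.0.16 in R 4.3.3: filterByExpr (minimum count 10, minimum total 15), TMM, glmQLFit with robust estimation and glmQLFTest with the condition as the only term, over 12148 genes. Benjamini-Hochberg adjustment ran over all of them, with calls at 0.05 (FDR). The standard error is the log2 fold change divided by the square root of F, with a median of 0.18. The test was tested on simulated data with the same spread in both groups and few changed genes, unlike in these data.

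Alternatives were DESeq2 1.42.0, limma-voom (limma 3.58.1) without and with group weights, 3 other scalings, 2 other filters, the replicate number as a block, and each library left out. Counts of called genes in lists were recomputed in these settings after seeing the data. The 9 genes and the lists were chosen with earlier results of these data known. Named genes are the 9, their close relatives, the 3 highest and 3 lowest called genes of each list without overlap between groups, and the 5 genes most like SGK1. Some items that this rule or the lists include are not reported here. INSR, RICTOR, MAPKAP1, MLST8, NEDD4L, CDKN1A, CDKN1B, SESN1, NFAT5, NR3C1, NR3C2, KCNQ1, SLC9A3R2, SCNN1G, FKBP5, CD68 and the other markers were named after their values were seen. Of the listed genes, 8 were matched by description. Labels do not say whether the libraries of a group came from separate cultures, so p-values measure the spread between these libraries, which may be technical. The files' assembly was not at hand, so coordinates, sequences and gene lengths are not given.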

Additional observations from a re-analysis of the deposited data

How the results depend on the processing

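Over the 15 alternative settings the number of genes called ranged from 4410 (without control replicate 3) to 7222 (without CD replicate 3), each within 1.5 times the 5800 called with all libraries. Among the 8 genes found by symbol, all calls and directions were kept under DESeq2, limma-voom without and with group weights, the 3 other scalings and no filter on low counts, and 7 of 7 with a minimum of 50 counts in 3 libraries, where IRS1 was not tested. With the replicate block, IRS1 was called lower (log2 fold change -0.72, FDR 0.0496), which makes 1 gene lower, and no other of the 8 calls changed. The block called 5408 genes. The labels do not say whether the numbers pair the libraries. Correlations of deviations between same-numbered libraries were -0.024, -0.33 and -0.19 for replicates 1, 2 and 3. Of 3 control libraries, 0 correlated best with its own number. With deviations taken within groups of 3 libraries, these values cannot decide whether libraries were paired. With 1 library left out, 2 to 4 of the 8 were higher and 0 to 2 lower. The log2 fold changes then ranged from -0.86 to -0.47 for IRS1, from -0.59 to -0.25 for IRS2, from 0.094 to 0.40 for PIK3R1, from 0.45 to 0.85 for PIK3CA, from 0.095 to 0.48 for FOXO1 and from -0.54 to 0.043 for PIK3CB. PIK3CB was called lower without CD replicate 1 (FDR 0.0265), and the cause was not tested. The median log2 fold change of all genes lay between 0.016 and 0.091 over the settings. IRS1 had the fewest reads of the 8, with 20 to 75 per library. Having only 3 libraries per group limits all 8. The coefficient of variation among CD libraries ran from 3.66% for GRB10 to 34.9% for IRS1.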
